A study of Mus musculus with 6 samples.

Results

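The regions described here were 556 sites at promoters of noncoding genes that were more accessible after MS-275 than after vehicle and that overlapped no site gained with CXD101 or more open with MS-275 than with CXD101. They were chosen by measured values. A site had to be a peak of the list of MS-275 over vehicle, share no base with a peak of CXD101 over vehicle or of MS-275 over CXD101, and overlap the 5 kb upstream of a transcription start site (TSS) of a noncoding gene but of no protein-coding gene. Noncoding genes were long noncoding RNAs (lncRNAs), pseudogenes, small RNAs, unclassified transcripts awaiting experimental evidence (TEC) and immune receptor segments of the GENCODE annotation of the mouse genome mm10. The 556 members were 6.56% of all 8480 MS-275 gained peaks and 8.26% of the 6729 peaks gained with MS-275 only (95% Wilson interval 7.63 to 8.94). Of all 8480 gained peaks, 713 met the same position rule, whatever their overlap with the other lists. Upstream windows of noncoding TSSs only held 5.45% of the known bases, a share of bases and not of peaks. Nothing is read from the share of members. The members were summits in 475 distinct intervals, and 153 of them shared an interval with another summit.

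Open chromatin was profiled by ATAC-seq, which uses a transposase to tag open DNA, in monocytic myeloid-derived suppressor cells (M-MDSCs). The cells were sorted as CD11b+ Ly-6Chi Ly-6G- from Hepa 1-6 liver tumors, a mouse hepatoma line grown in the liver of wild-type female C57BL/6J mice. All groups carried the tumor and differed in the daily injection they received, which was vehicle, MS-275 or CXD101, and the labels gave 2 libraries for each of the 3 groups. MS-275 and CXD101 both inhibit class I histone deacetylases. Peaks had been called on the pooled libraries of a group, so no difference below has a replicate check, and all intervals cover counting error only.

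Histone deacetylases remove acetyl groups from histone tails, and their inhibition leaves chromatin more acetylated, which generally goes with more open DNA. Long noncoding RNAs start from promoters much like those of coding genes, often next to a coding gene or on its opposite strand, and some are the primary transcripts from which microRNAs are cut. In myeloid cells, microRNAs such as miR-142, miR-155 and miR-125b are known regulators of differentiation and activation.

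The sequences around 6 summits are shown because the results below turn on these sites. They were the sites with the highest significance (Gm48812) and the highest fold enrichment (Gm43933), the strongest sites at the immune noncoding RNAs Mir142hg and Neat1, and the strongest at Junos and Nr6a1os, RNAs named after a coding gene on the opposite strand. Each is the summit and 100 bases to either side in GRCm38.p6, the assembly behind mm10, read 5′ to 3′ on the plus strand. Capitals mark matches to the searched motifs, an NF-Y match in Gm48812 and Gm43933, CTCF in Neat1, and a GC box and C/EBP in Junos. No motif searched for was found in the windows at Mir142hg and Nr6a1os.
Gm48812, chr13:62951885-62952085: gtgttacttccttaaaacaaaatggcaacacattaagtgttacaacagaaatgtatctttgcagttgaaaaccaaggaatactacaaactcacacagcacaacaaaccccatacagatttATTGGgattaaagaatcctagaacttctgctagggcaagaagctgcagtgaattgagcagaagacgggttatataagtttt
Gm43933, chr6:121548401-121548601: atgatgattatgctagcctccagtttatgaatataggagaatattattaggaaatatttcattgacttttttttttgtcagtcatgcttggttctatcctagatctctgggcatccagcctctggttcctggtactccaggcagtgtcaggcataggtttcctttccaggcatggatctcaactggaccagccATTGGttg
Mir142hg, chr11:87754468-87754668: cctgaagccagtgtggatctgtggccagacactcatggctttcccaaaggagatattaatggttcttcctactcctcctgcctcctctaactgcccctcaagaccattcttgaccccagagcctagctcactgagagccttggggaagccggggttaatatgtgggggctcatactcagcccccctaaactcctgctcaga
Neat1, chr19:5849153-5849353: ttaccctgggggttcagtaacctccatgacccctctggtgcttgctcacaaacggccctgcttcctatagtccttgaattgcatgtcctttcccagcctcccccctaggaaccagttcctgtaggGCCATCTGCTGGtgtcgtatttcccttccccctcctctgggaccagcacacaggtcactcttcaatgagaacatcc
Junos, chr4:95075760-95075960: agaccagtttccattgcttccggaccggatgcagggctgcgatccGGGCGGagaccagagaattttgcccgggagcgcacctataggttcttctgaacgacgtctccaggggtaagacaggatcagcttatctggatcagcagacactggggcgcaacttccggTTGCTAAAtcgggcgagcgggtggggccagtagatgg
Nr6a1os, chr2:38823242-38823442: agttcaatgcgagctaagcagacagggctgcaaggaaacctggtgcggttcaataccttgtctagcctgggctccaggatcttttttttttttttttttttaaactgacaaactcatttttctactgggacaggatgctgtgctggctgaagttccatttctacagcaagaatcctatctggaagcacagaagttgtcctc

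The microRNAs of 3 loci with members are given as mature RNAs from RefSeq, with the seed, bases 2 to 8, in capitals. No pair of these 4 shared a seed. Of 16 microRNA genes with a member, 9 were in the RefSeq table.
miR-142a-5p: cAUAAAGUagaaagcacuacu
miR-142a-3p: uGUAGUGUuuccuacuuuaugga
miR-155-5p: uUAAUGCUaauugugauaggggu
miR-125b-5p: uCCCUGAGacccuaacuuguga

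At most members the MS-275 pileup was at least double the vehicle level. Fold enrichment, the authors' ratio of treated to control pileup after a pseudocount of 1, ran from 1.44 to 6.41 with a median of 2.83, and it was 2 or more at 510 members and 4 or more at 57. The tags behind each value were solved from the fold enrichment and its p-value. Over the members, the median was 54 tags with MS-275, or 47.2 at vehicle depth, and the median vehicle level was 16, each taken separately. The vehicle level was at least double its lowest value of 5.84 at 372 members (66.9%) and at that lowest value at 15. MACS2 takes the largest average over windows of different width as this level, which can therefore come from the surrounding sequence and not from the site itself. These values chose the members and are a description. The median fold was 2.65 at the 1572 MS-275-only peaks of coding promoters, 2.94 at the 4601 outside promoters, and 2.78 at the 157 noncoding promoter peaks that did overlap a peak of the other lists named in the rule.

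**Figure D1:**
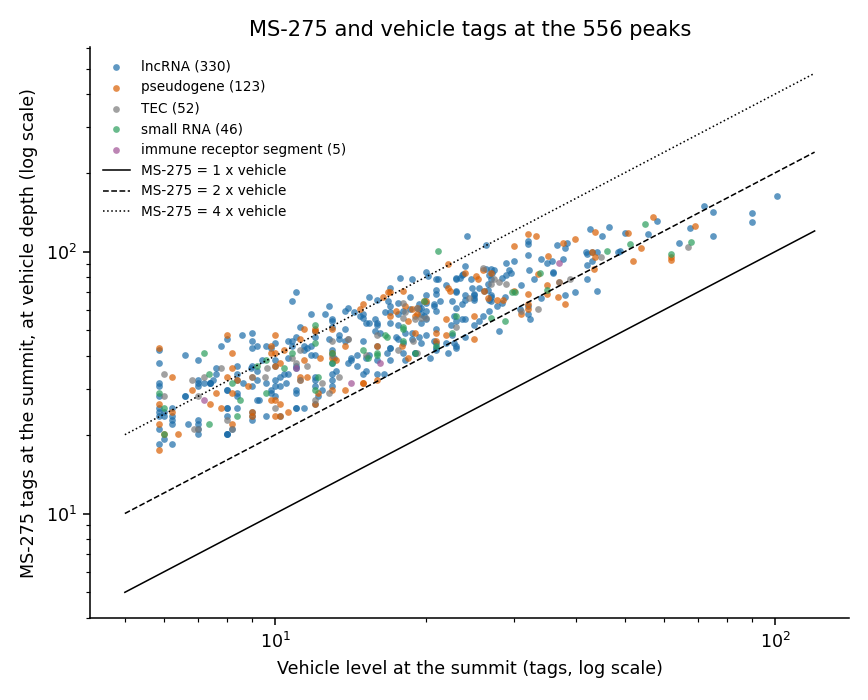
MS-275 tags at the summit, scaled to vehicle depth, against the vehicle level for the 556 members, both on log scales, colored by the class of the nearest noncoding gene. All members lie above the line of equality, where the choice of members puts them, and most lie between the lines at 2 and 4 times vehicle.

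The most significant member lay upstream of Gm48812, an intergenic lncRNA, at chr13:62951879-62952141, 2543 bases before its TSS. MS-275 had 115 tags at vehicle depth there and vehicle 24.2, a fold of 4.62 with a −log10 p of 40.4. Gm24754, a small nuclear RNA gene, followed with 101 tags over 21.2 and a fold of 4.57. The third, Gm15657, is an antisense RNA whose TSS was 219 bases from the summit, 6.71 kb upstream of Muc13, which encodes a transmembrane mucin. It had 69.9 tags over 11.0 and a fold of 5.91, so its vehicle level was the lower one and its fold the higher. Gm47732, a lincRNA 132 kb from Ly86, which encodes a partner of a Toll-like receptor homolog, had 64.7 tags over 10.8. Gm2477 and Gm6610, both processed pseudogenes, had folds of 3.58 and 3.92, and the lincRNAs Gm38326, 1700052H01Rik and Gm28086 had 3.90, 3.37 and 4.29. The remaining member of the top 10 was assigned to the pseudogene Gm29794 and had 115 tags over 33.2. It lay inside Tbc1d32, 109 bases downstream of the TSS of Msl3l2, in an exon of a protein-coding gene not identified here.

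The highest folds belonged to sites with low vehicle levels. Gm43933, a processed pseudogene, had a fold of 6.41 from 42.8 tags over 5.84. The processed transcripts 2610307P16Rik and 4930598N05Rik had folds of 6.28 and 5.64 over the same level, with summits 3204 and 65 bases upstream of their TSSs. That level of 5.84 was also the lowest over all 8480 MS-275 gained peaks. Vehicle tags at these sites themselves may have been fewer and could not be read from it. Gm15657 and Gm47732 completed the 5 highest.

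Among 26 immune and myeloid noncoding RNAs, 3 had members, Mir155hg, Mir142hg and Neat1. For comparison, 418 of all 32088 noncoding genes had one (1.3%), and the members were chosen on this contrast, so nothing is read from the count. Mir155hg is the host transcript of miR-155, a microRNA induced in activated immune cells. Its member had 83.1 MS-275 tags at vehicle depth over 29.6 and a fold of 2.75. The mature miR-155 sequence begins farther downstream in the host gene, and no member lay within 5 kb upstream of the Mir155 gene itself.

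Mir142hg, the host of the blood cell microRNA miR-142, had 4 summits in 3 intervals. The strongest, 1009 bases upstream of the host TSS and 2296 bases upstream of Mir142, had 124 tags over 46.6, a fold of 2.63. The others lay 3660 to 4949 bases upstream of the host TSS with folds of 1.74, 2.30 and 1.68. All 4 had vehicle levels of 32.3 or more, above the median member, and the strongest had an observed to expected CpG of 0.07. Mir142 itself qualified through 3 of the same summits. Neat1, the RNA scaffold of nuclear paraspeckles, had 1 member 3775 bases upstream, with 131 tags over 58.0 and a fold of 2.24. This summit carried the single CTCF match among the 556 members, and its interval also fell within reach of small RNA entries annotated inside Neat1.

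A member was found at 0.659% of small RNA genes and 1.3% of all noncoding genes, and nothing is read from the counts of this paragraph. Of 48 myeloid and stress microRNA genes, 2 had members (4.17%), Mir142 and Mir125b-2. The latter had 3 summits in 2 intervals, 1911 to 4406 bases upstream, with folds of 4.20, 2.73 and 2.30 and vehicle levels of 7.36, 7.36 and 29.8. Of 16 imprinted, X-inactivation and chromatin-associated RNAs, 1 had a member, Bvht, a lncRNA known from cardiac differentiation, with 68.2 tags over 27.0. None of 17 snoRNA host genes and none of 15 Hox cluster noncoding RNAs had a member.

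Of all lncRNA genes 2.36% had a member, and of all noncoding genes 1.3%, and nothing is read from the count that follows. Of 288 RNAs named as the opposite strand of a coding gene, 10 had members (3.47%). Nr6a1os, opposite the nuclear receptor gene Nr6a1, had the largest fold of these, 4.59 from 57.7 tags over 11.8, with the summit 1 base past its TSS and inside an intron of Nr6a1. Its window contains a long run of T. Nudt12os had a fold of 3.69, Sox5os3 3.08 and Foxd2os 2.90. Foxd2os lay in an exon of the forkhead gene Foxd2, 0.6 kb downstream of the coding TSS, and its window had a GC content of 62.2% and a CpG ratio of 1.05. Pmepa1os had 2 summits 0.458 and 0.663 kb downstream of the TSS of Pmepa1, with folds of 2.60 and 2.34. Hand2os1, beside the cardiac transcription factor gene Hand2, had the weakest p of the group, 20.1 tags over 8.0. Tspan2os, Tspan32os and Slc36a1os had folds of 2.60, 2.29 and 1.85. In the window at Sox5os3 only 1 of 18 words of 31 bases occurred once in the genome.

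Several noncoding promoters gained more than 1 site. There were 82 genes with 2 or more member intervals and 17 with 3 or more, and 306 members had another member summit within 5 kb. The 306 include the 153 that shared an interval with another summit. At 47 members the interval met windows of more than 1 noncoding gene and was counted for each. The same counts were not made for the other peak sets, so nothing is read from them. Gm48812 had 4 intervals within its upstream window, with folds of 3.57, 4.62, 2.52 and 4.02 and vehicle levels from 18.8 to 24.2. Junos had 4, in pairs. One pair had summits 23.4 and 23.6 kb from Jun, which encodes a subunit of AP-1, with folds of 1.93 and 3.16. The first summit lay 61 bases upstream of its nearest Junos start site, and the second 44 bases downstream of a different one. The other pair was upstream of a further start, 41.4 and 42.5 kb from Jun, with folds of 2.83 and 2.63. It lay near the lincRNA 4930551L18Rik as well. Gm37652, a TEC entry inside Mecom, a zinc finger regulator of blood stem cells, had 4 intervals 0.837 to 2.19 kb downstream of a Mecom TSS with folds of 2.05 to 2.99. Gm25195, a microRNA entry, had 4 intervals between Fkbp5, which encodes a co-chaperone of steroid receptors, and Armc12, shared with the lincRNAs E230001N04Rik and Gm20109. Gm34680, within Zdhhc19, had folds of 2.29 to 3.35 at 4 intervals.

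**Figure D2:**
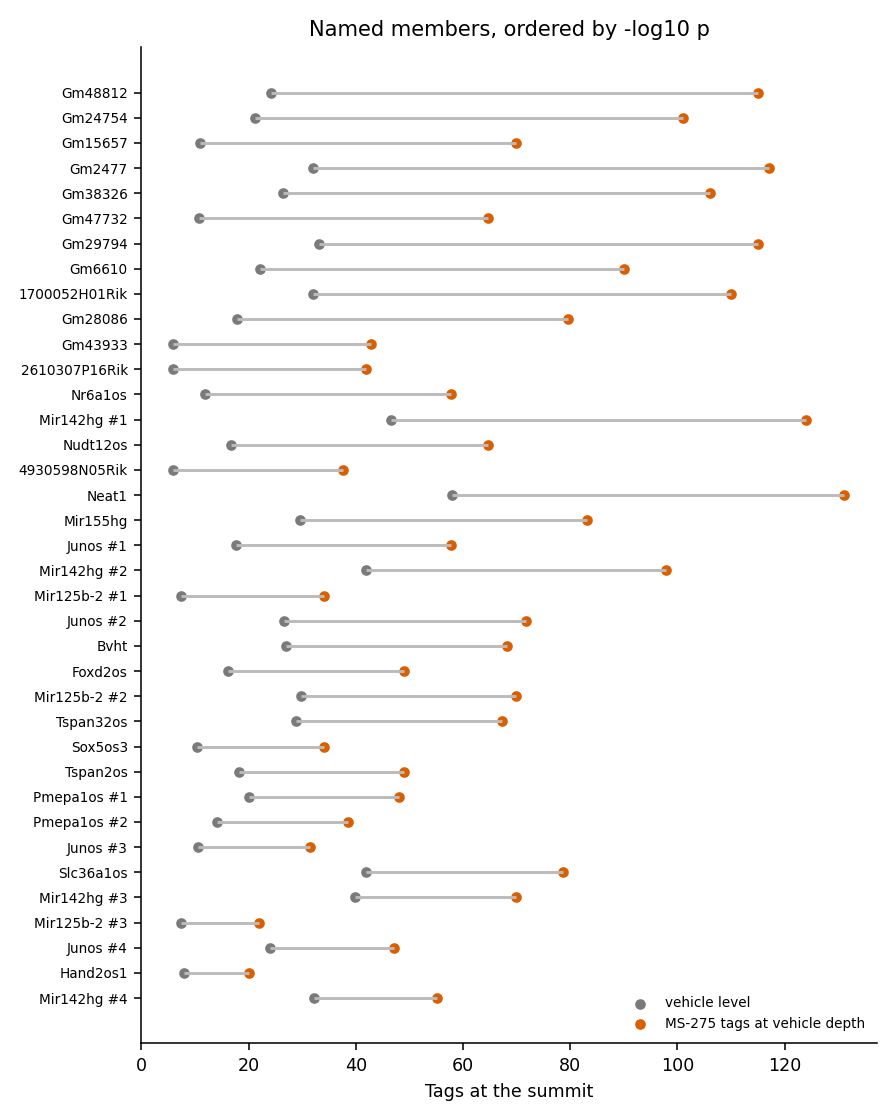
Vehicle level (gray) and MS-275 tags scaled to vehicle depth (orange) at the summits named for their p-value, their fold or their gene list, ordered by −log10 p, with # numbering the summits of a gene. The bar between the points is the difference at each site, and the largest is that of Gm48812, from 24.2 to 115.

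By class, 330 of the 556 members were nearest to a lncRNA (59.4%, 55.2 to 63.4), 123 to a pseudogene, 52 to a TEC entry, 46 to a small RNA gene and 5 to an immune receptor segment. The largest types were intergenic lncRNAs with 197 members, processed pseudogenes with 95 and antisense RNAs with 91. Counted by gene, 227 of 9603 lncRNA genes had a member (2.36%), against 95 of 12713 pseudogenes (0.747%), 48 of 3210 TEC entries (1.5%) and 40 of 6068 small RNA genes (0.659%). These shares were not adjusted for the number of start sites per gene. Median folds were close between classes, 2.85 for lncRNAs and pseudogenes, 2.78 for TEC entries and 2.70 for small RNAs. Pseudogenes differed in sequence. Only 2.44% of their members were CpG-rich (0.833 to 6.93), meaning a GC content of at least 50% and an observed to expected CpG of at least 0.6 in the summit and 100 bases to either side, against 14.2% at lncRNAs (10.9 to 18.4). In 51 of the 123 pseudogene windows some 31-base word occurred more than once in the genome, against 38 of the 330 lncRNA windows.

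Summits became denser toward the noncoding TSS. There were 82.4 members per kb from 5 to 2.5 kb upstream, 89.3 from 2.5 to 1 kb, 143 from 1 to 0.25 kb, and 212 in the last 0.25 kb. A further 44 summits lay downstream of the TSS and 12 beyond 5 kb, where an edge of the interval met the window. With several start sites per gene the nearest was used, which favors short distances. The amount of eligible sequence at each distance was not counted, so the densities are a description. In all, 204 members had the summit within 1 kb of a noncoding TSS (36.7%, 32.8 to 40.8). Their median fold of 2.81 was close to the 2.84 of the other 352, and 15.2% of them were CpG-rich (10.9 to 20.8) against 9.09% (6.51 to 12.6), with intervals that overlap.

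**Figure D3:**
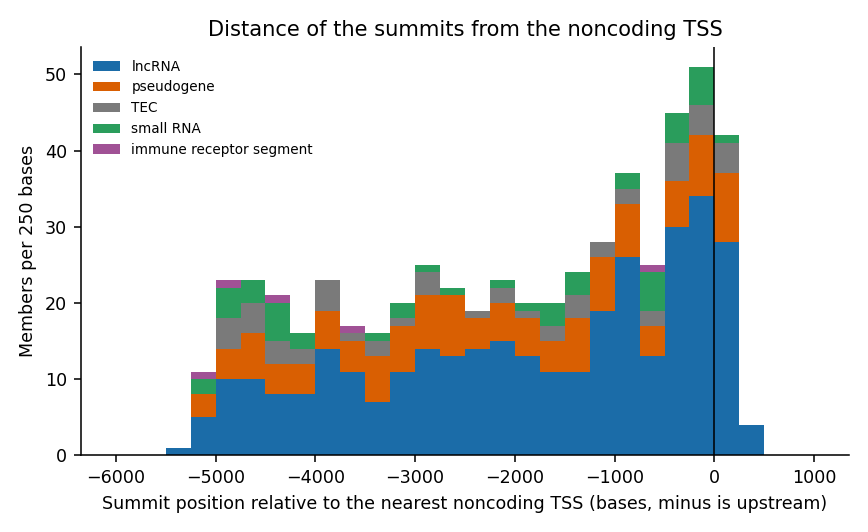
Number of members per 250 bases by the position of the summit relative to the nearest noncoding TSS, upstream to the left, stacked by gene class. The count is highest in the bins next to the TSS, and lncRNAs make up most of them.

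The summit lay inside a coding gene at 210 members (37.8%, 33.8 to 41.9), a smaller share than the 52.9% of all MS-275 gained peaks. The difference was -15.2 points from the MS-275-only peaks outside promoters (-19.3 to -10.8) and -26.7 points from those at coding promoters (-31.2 to -21.9). The rule keeps members out of the 5 kb upstream of a coding TSS, while coding promoter peaks must overlap it. Differences in position between these sets therefore follow in part from the rule. Of the 210, 179 were in introns and 31 in exons. At 145 of those 210 the noncoding gene was on the strand opposite the coding gene (69.0%, 62.5 to 74.9). The same share over all annotated noncoding genes inside coding genes is not given, so the value is a description only. The rule bars the 5 kb upstream of a coding TSS but not the bases after it, and 59 members had the summit within 1 kb downstream of one. These 59 carried much of the CpG-rich sequence, with 28 CpG-rich windows (47.5%, 35.3 to 60.0) against 35 of the other 497 (7.04%, 5.11 to 9.64). At the other end, 160 members (28.8%) were over 50 kb from any coding TSS, and the median distance to the nearest one was 20420 bases.

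**Figure D4:**
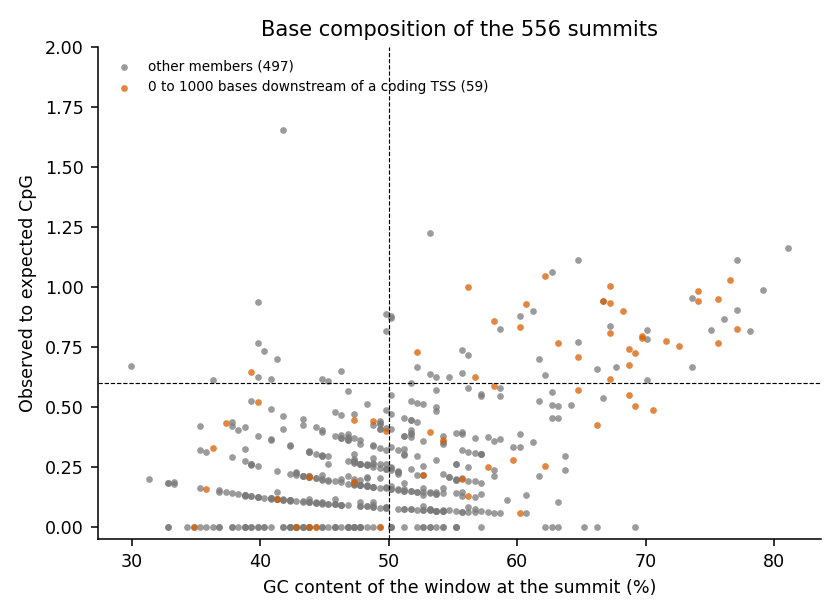
Observed to expected CpG against GC content of the window at each summit, with the 59 members that lie within 1 kb downstream of a coding TSS in orange. Dashed lines mark the limits of the CpG-rich class at 50% GC and a ratio of 0.6, and orange points gather in the upper right.

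Set against the 1572 MS-275-only peaks at coding promoters, the members were poorer in CpG. The sets were not matched for distance to a start site. The rule bars members from the 5 kb upstream of a coding TSS and places coding promoter peaks there. Differences in CpG and in the GC box can therefore follow in part from the rule, and by how much was not tested. Coding promoter summits had a median of 366 bases to a coding TSS, while 36.7% of members lay within 1 kb of a noncoding TSS. A peak upstream of both kinds of TSS counted as a coding promoter peak. Of the members 11.3% were CpG-rich (8.96 to 14.2) and of the coding promoter peaks 31.4% (29.2 to 33.8), a difference of -20.1 percentage points (Newcombe 95% interval -23.4 to -16.4). It was -24.4 without the 59 members just described, which were left out of the members only, and -10.8 (-15.1 to -6.34) with the 5′ end of each gene as its only TSS, where 18.4% of 608 members and 29.2% of 804 coding promoter peaks were CpG-rich. The members' share was close to the 11.5% of all MS-275 gained peaks, and the 157 noncoding promoter peaks outside the MS-275-only set had 8.92% (5.39 to 14.4). The MS-275-only peaks outside promoters had 4.98%, which was 6.35 points below the members (3.89 to 9.32). The GC box, GGGCGG, the site of Sp and KLF factors, followed the same order with 8.09% of members, 24.9% of coding promoter peaks and 5.74% outside promoters. The summit lay in a masked repeat at 18.2% of members and 12.3% of coding promoter peaks, a difference of 5.89 points (2.45 to 9.63), and at the same 18.2% outside promoters. Repeats also held 25.8% of 31871 windows of the same length that end at a noncoding TSS away from coding promoters, and 5.75% of those windows were CpG-rich.

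Motifs of myeloid and stress factors were searched on both strands in the same windows, 10 in all, and the intervals were not adjusted for that number. AP-1, TGACTCA, was found at 15 members (2.7%, 1.64 to 4.4), at 1.53% of coding promoter peaks and at 3.77% of the noncoding TSS windows, and the difference from coding promoter peaks was 1.17 points with an interval from -0.116 to 2.95. C/EBP, TTGCNNAA, the motif of a family that drives myeloid differentiation, was found at 11.9% of members and 8.27% of coding promoter peaks, a difference of 3.6 points (0.763 to 6.81), and at 8.38% of the TSS windows. Against the peaks outside promoters the difference was 2.37 points, with an interval from -0.213 to 5.44 that includes 0, and the 157 noncoding promoter peaks outside the MS-275-only set had 10.8%. NF-Y, CCAAT, was found at 21.6% and 17.0% (difference 4.6, 0.842 to 8.62), and at 26.9% of the TSS windows. Its difference from the peaks outside promoters was 0.153 points (-3.29 to 3.94). PU.1, GAGGAAGT, the myeloid master factor, and IRF were each found at 10 members (1.8%), beside 1.76% and 3.24% of the TSS windows. The E-box, CACGTG, was at 3.24% of members and 2.64% of TSS windows. The CRE, TGACGTCA, and NRF1 were at 2 members each, beside 0.42% and 0.377% of TSS windows, and CTCF at 1, beside 0.267%. The GC box was at 6.24% of the TSS windows. A match is a run of letters and says nothing of binding.

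**Figure D5:**
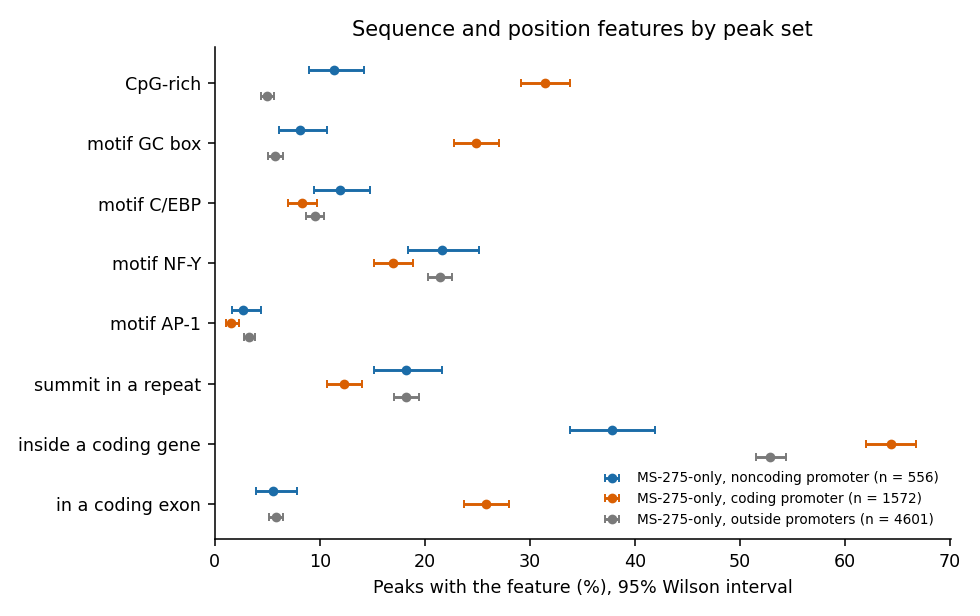
Share of peaks with each sequence or position feature, with 95% Wilson intervals, for members (blue), MS-275-only coding promoter peaks (orange) and MS-275-only peaks outside promoters (gray). Members sit well below coding promoter peaks for CpG-rich sequence, the GC box and exons of coding genes. They sit close to the peaks outside promoters for repeats and NF-Y. The rule sets where each group lies relative to a coding TSS, so the shares in coding genes and exons follow in part from it. The CpG-rich and GC box shares can also follow in part from it, which was not tested.

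Absence from the CXD101 list does not show that CXD101 left a site unaltered. The deposited list held 284 peaks, and its lowest −log10 p was 4.50. The study's text describes longer lists for both inhibitors, which were not used here, and its methods name a threshold on the p-value while the deposited lists end on the q-value. Which members count as gained with MS-275 only, and the values of this paragraph, hold for the deposited lists. Of the members, 516 had a −log10 p at or above this value in the MS-275 comparison (92.8%, 90.4 to 94.7), so the same tags would have reached it. The lowest value of the direct list was reached by 550 (98.9%), but that list has CXD101 and not vehicle as its control. Members share no base with a peak of the direct list. The rule can therefore favor sites where CXD101 lay between vehicle and MS-275, and CXD101 levels at the members could not be read from the lists. To reach the 4.50 of its own list, CXD101 would have needed a median of 34.3 tags at vehicle depth. The medians were 47.2 with MS-275 and 16 in vehicle, each taken separately over the members. The vehicle level was the one solved from the MS-275 comparison. Taken member by member, the gain needed had a median of 59.6% of the MS-275 gain. At 384 members (69.1%, 65.1 to 72.8) a CXD101 gain of 50% of that with MS-275 would have stayed below the value. No member overlapped a peak lost with CXD101.

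The thresholds of the rule were met closely by a few sites. The member with the lowest −log10 q, 1.31, was at 4930596I21Rik with 27 MS-275 tags, and the list holds no peak below its own end. The smallest overlap with an upstream window was 2 bases, at Gm45606 with a fold of 3.30, and the nearest peak left out lay 7 bases from a window, with a fold of 2.85. The member closest to a peak of CXD101 over vehicle or MS-275 over CXD101 was 145 bases away, one of the intervals near Gm25195, with a fold of 2.79. The smallest overlap that removed a peak was 159 bases, at 4930449I04Rik with a fold of 1.75.

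The deposited lists hold only sites that differ between groups, so the sorted cell type could not be checked from open marker genes. Of 54 marker genes in 8 lists, 11 had an MS-275 gained peak in the gene or its 5 kb upstream, beside 11.7% of all coding genes, and 0 had a lost one, beside 1.68%. The 3 of 8 monocyte and M-MDSC markers were Fn1, Itgam and Ly6c2, and the 4 of 8 neutrophil markers were Cxcr2, Ly6g, Ngp and S100a9. The macrophage list had 1 of 8, the T cell list 1 of 7, the NK cell and hepatocyte lists 1 of 6 each, and the B cell and erythroid lists none. Their part in the members was not tested.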

How the data were processed

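ATAC-seq libraries of sorted M-MDSCs (6, in 3 groups of 2 by the treatment label) had been aligned to mm10 with Bowtie2 and compared between pooled groups with MACS2 2.2.7.1, per the submitters' processing notes. The authors deposited 6 peak lists with, for each peak, a fold enrichment (a linear ratio with a pseudocount of 1), a −log10 p-value, a −log10 q-value and the summit offset in bases, a number of no other scale. The lists end at a −log10 q of 1.30. Peak calling by the authors used a shift of 0, so summits can be displaced from the sites the transposase cut, by an amount not measured here. Tags and control levels were solved from fold and p, which reproduced all 8480 peaks of the MS-275 gained list (30 with a second solution), with MS-275 1.14 times as deep as vehicle; the control level is the highest of local averages and so an upper estimate. Read depth per library was not used here. Overlaps of at least 1 base, distances and motifs used GENCODE M21 and GRCm38.p6 with Python 3.11.15, numpy 2.4.6 and pandas 2.3.3. Shares carry Wilson and differences Newcombe 95% intervals from statsmodels 0.14.6, and no p-value was computed across peaks, which are not replicates. The code was tested on simulated data. The members and gene lists were chosen with earlier results of these data known. Named genes were the 10 members with the highest −log10 p, the 5 with the highest fold, up to 5 genes with at least 3 member intervals, every listed gene with a member, and the sites nearest each threshold. The sequence at 1 named site is not reported here.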

Additional observations from a re-analysis of the deposited data

How the results depend on the processing

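Of 60 pairs of a result and an alternative setting, 50 were counted as the same and none reversed a difference. The 50 include the CpG-rich differences of -10.8 and -24.4 points, which lay outside the main interval of -23.4 to -16.4. With a noncoding window of 1 kb the members numbered 222 and their genes 179, which follows from the narrower window. The median fold was 3.02 at a −log10 q of 3 or more, 2.93 with the strongest summit of each interval and 2.97 without the pseudocount. With the 5′ end of each gene as the TSS, the share inside a coding gene was 51.3% and the CpG-rich share 18.4%; fewer coding start sites then bar a peak. The CpG-rich difference from coding promoter peaks was -10.8 points under that setting, also chosen after seeing the data. The CpG-rich share was 7.04% without the members within 1 kb downstream of a coding TSS, an alternative chosen after seeing the data, as were those without immune receptor segments (552 members) and with unique sequence only (445). With 50 bases either side of the summit the AP-1 share was 1.08%, and at a −log10 q of 3 or more every member passed the CXD101 limit (100%), which that setting fixes. No paired analysis was possible because replicates of a group had been merged ahead of peak calling, and leaving out a replicate was not run for the same reason. Counts of tags limit single sites, and depth per library was not used here.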
